A study of Mus musculus with 12 samples.

Results

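The comparison described here sets interferon-gamma against interferon-alpha in mouse embryonic fibroblasts (MEFs) that had been given AMN107. AMN107, or nilotinib, is a drug that blocks the ABL tyrosine kinases. The members were chosen by the arrays' titles alone: 2 arrays of AMN107-IFNg cells and 2 of AMN107-IFNa cells, 4 of the 12 arrays of the series. In these cells IFNg gave higher signal than IFNa for the interferon-inducible GTPases, for a set of IRF, STAT and BATF transcription factors, for the chemokines Cxcl9, Cxcl11 and Cxcl10, and for part of the peptide-loading and antiviral genes. No gene was lower by 2-fold or more.

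The 6 groups of the series held 2 arrays each. In 3 of them the cells had AMN107, with IFNa (AMN107-IFNa), with IFNg (AMN107-IFNg) or with neither (AMN107), and the same 3 states without the drug are IFNa, IFNg and DMSO, the solvent control. Per the labels, the MEFs grew in serum-containing Dulbecco's medium, had AMN107 or not, and then met an interferon for 6 h or none. All 4 arrays of the comparison carry AMN107, so they do not by themselves show what AMN107 does; the 2 AMN107 arrays without interferon and the 6 arrays without AMN107 are used for that. Genotype, strain, passage, the doses and the duration of AMN107 are not given in the sources used here. The arrays of a group are called biological replicates, with no statement of separate embryos or cultures, so p-values measure the spread between these arrays. The series asks how an inhibitor of c-Abl bears on interferon response genes.

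Interferon-alpha is a type I interferon. It binds the IFNAR receptor, whose kinases JAK1 and TYK2 lead to a complex of STAT proteins with IRF9 that binds the interferon-stimulated response element (ISRE). Interferon-gamma is the type II interferon. It binds the IFNGR receptor, whose kinases JAK1 and JAK2 lead to STAT dimers that bind the gamma-activated site (GAS), and it induces transcription factors such as IRF1 that act at ISRE-like sequence. Fibroblasts carry both receptors, and many genes answer to either cytokine.

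Promoters are printed to show where such letters lie in some of the genes named below. Each is the 250 bases before the gene's start, 5′ to 3′ on the gene's strand, from RefSeq's set for GRCm38.p6. Capitals mark a match to GAS (TTCNNNGAA, which reads the same on both strands) or to ISRE (GAAANNGAAA, or TTTCNNTTTC on the other strand). The first 4 belong to the pair of listed genes with the largest difference in each direction that RefSeq's set holds, and none of them has a match. Mvd and Ifi30, the lower pair, differed by log2 -0.33 and -0.24 and lost their calls when 1 array or another was left out. Irf1, Irf8 and Gbp2 were added after their values were seen, because their promoters hold matches.
Cxcl9, chr5:92328080-92328329, - strand: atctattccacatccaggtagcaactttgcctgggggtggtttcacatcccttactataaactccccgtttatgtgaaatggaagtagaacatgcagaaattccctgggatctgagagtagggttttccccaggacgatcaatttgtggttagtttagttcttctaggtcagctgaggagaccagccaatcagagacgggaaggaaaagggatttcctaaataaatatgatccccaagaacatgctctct
Tubb3, chr8:123411303-123411552, + strand: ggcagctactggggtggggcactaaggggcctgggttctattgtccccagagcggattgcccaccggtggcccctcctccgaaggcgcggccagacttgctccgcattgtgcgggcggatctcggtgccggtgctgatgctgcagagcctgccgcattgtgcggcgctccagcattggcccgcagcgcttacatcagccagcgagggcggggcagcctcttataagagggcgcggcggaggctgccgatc
Mvd, chr8:122443423-122443672, - strand: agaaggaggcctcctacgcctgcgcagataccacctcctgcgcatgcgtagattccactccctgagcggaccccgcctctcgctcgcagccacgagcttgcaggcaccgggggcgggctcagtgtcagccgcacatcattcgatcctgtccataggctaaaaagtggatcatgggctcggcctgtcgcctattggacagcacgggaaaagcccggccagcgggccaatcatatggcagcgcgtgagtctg
Ifi30, chr8:70766664-70766913, - strand: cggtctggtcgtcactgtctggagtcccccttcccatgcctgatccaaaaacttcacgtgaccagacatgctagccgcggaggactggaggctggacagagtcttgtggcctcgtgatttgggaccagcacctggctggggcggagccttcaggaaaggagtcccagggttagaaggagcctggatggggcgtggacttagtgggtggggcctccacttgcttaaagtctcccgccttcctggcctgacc
Irf1, chr11:53769764-53770013, + strand: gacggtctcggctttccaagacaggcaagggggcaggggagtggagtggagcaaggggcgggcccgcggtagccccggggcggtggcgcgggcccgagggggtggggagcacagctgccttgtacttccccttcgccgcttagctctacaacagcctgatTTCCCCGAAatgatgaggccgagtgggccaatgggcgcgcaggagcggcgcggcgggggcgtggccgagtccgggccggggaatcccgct
Irf8, chr8:120736108-120736357, + strand: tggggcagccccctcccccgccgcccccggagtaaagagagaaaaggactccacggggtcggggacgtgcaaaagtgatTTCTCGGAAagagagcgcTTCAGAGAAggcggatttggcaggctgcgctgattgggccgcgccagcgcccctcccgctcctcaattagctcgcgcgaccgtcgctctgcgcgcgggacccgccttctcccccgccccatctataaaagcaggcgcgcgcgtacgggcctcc
Gbp2, chr3:142620413-142620662, + strand: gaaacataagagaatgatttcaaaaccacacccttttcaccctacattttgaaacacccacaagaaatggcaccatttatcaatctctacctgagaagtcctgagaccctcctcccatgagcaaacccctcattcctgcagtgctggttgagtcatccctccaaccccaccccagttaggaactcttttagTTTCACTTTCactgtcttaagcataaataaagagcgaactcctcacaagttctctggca
The GAS match of Irf1 begins 90 bases before the start, the first of the 2 of Irf8 begins 171 bases before it, and the ISRE match of Gbp2 begins 59 bases before it. Of the 61 genes higher with IFNg by 2-fold or more, 42 had a promoter there. An ISRE match lay in 11 of these 42 (26.2%) and a GAS match in 9 (21.4%), with 3 genes holding both and 0 holding overlapping matches. Over the 9803 tested genes with a promoter, 2.98% had an ISRE match and 7.05% a GAS match, and over all 27025 promoters held there 3.46% and 8.13%. Of all 374 genes higher with IFNg at any size, 297 had a promoter, with an ISRE match in 10.4% and a GAS match in 9.09%. Among the GTPases with a promoter, 6 of 7 had an ISRE match, and among the antiviral effectors 12 of 32. Among the interferon receptors and JAK-STAT-IRF factors it was 2 of 21, and among the MHC class I and peptide-loading genes 1 of 9. These are matches of letters and carry no test.

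The 4 arrays were alike in quality. Their median signals ran from 21.3 to 21.7. The 2 replicates correlated at r = 0.9973 (AMN107-IFNa) and 0.9978 (AMN107-IFNg) on the log2 scale across the 12117 tested genes. The ratio of 5′ to 3′ signal of the Gapdh control probe sets was 1.122 and 1.145 with IFNa and 1.143 and 1.161 with IFNg. One array of the series stood apart in this ratio: it was 0.0252 on IFNa replicate 2, without AMN107, and 1.07 to 1.16 on the other 11. The IFNa arrays also had the widest replicate spread (SD of the replicate difference 0.403, against 0.119 to 0.145 in the other groups), so they were kept out of the fit behind the comparison, which used the other 10 arrays. The actin ratio split the series otherwise: 0.676 and 0.712 with DMSO, 0.696 on IFNa replicate 1, and 0.791 and 0.795 with IFNg. It was 0.798 to 0.830 on the AMN107-treated arrays. The LysX control signal was 59.6 and 66.2 with DMSO, 81.1 and 45.4 with IFNa, and 36.1 to 41.4 elsewhere. The part of this split in the difference without AMN107 and in the interaction was not tested. Fibroblast markers were above the array's median for 9 or 10 of 13 on the 4 arrays, with a summed signal of 7179 to 7518. Of 11 macrophage and leukocyte markers, 4 were above the median on each array, with sums of 322 and 355 with IFNa and 294 and 308 with IFNg. The marker sums of endothelium and of epithelium overlapped between the groups. Those of muscle (344 and 348 with IFNa, 313 and 314 with IFNg) and of fat and cartilage (194 and 201, then 186 and 177) were lower with IFNg, as was that of leukocytes, and their part in the results was not tested. In bulk RNA, more cells answering and more RNA per answering cell cannot be told apart.

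Of 12117 genes tested, 428 (3.53%) passed limma's test for IFNg against IFNa under AMN107 at an adjusted p of 0.05. They were higher with IFNg in 374 genes (3.09%) and lower in 54 (0.446%). A difference of at least 2-fold was seen for 61 genes (0.503%), all higher, and for 0 lower. For all 428 genes both arrays of one group lay beyond both arrays of the other, which was also so for 17.5% of all genes tested in the higher direction and 23.5% in the lower. The median log2 difference over all genes was -0.012, with 44.6% of genes above 0. Counts and medians of the gene lists below are to be read against these values for all genes. The count of 428 fell to 170 (167 higher, 3 lower) when the IFNa arrays were added to the fit, to 279 without AMN107-IFNa replicate 1, to 266 without AMN107-IFNg replicate 1 and to 260 without AMN107-IFNg replicate 2. The count at 2-fold stayed between 54 and 74 in every setting that kept 1 probe set per gene.

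**Figure D1:**
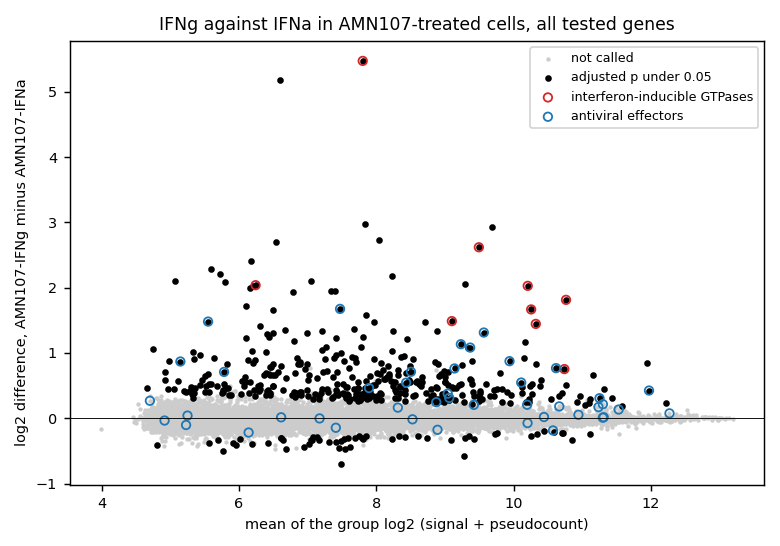
Each point is 1 of 12117 genes; the x axis is the mean of both groups' log2 (signal + pseudocount) and the y axis the log2 difference AMN107-IFNg minus AMN107-IFNa. Black points have an adjusted p under 0.05, and open rings mark the GTPase and antiviral lists. The differences reach 5.47 above 0 and only -0.71 below it.

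Set beside the AMN107 arrays without interferon, IFNg called 873 genes (7.20%; 585 or 4.83% higher, 288 or 2.38% lower, 108 or 0.891% higher by at least 2-fold) and IFNa 125 (1.03%; 116 or 0.957% higher, 9 or 0.0743% lower, and likewise 9 higher by at least 2-fold). Both of these comparisons use the same 2 AMN107 arrays, so their values are given only side by side. On the first principal component of the 6 AMN107 arrays, which held 66.9% of the variance, the AMN107 arrays lay at -12.3 and -10.4, the AMN107-IFNa arrays at -5.26 and -3.25, and the AMN107-IFNg arrays at 15.3 and 15.9. The IFNa arrays thus lay between the others, nearer to the cells without interferon.

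The interferon-inducible GTPases, which bind to the vacuoles of intracellular parasites and bacteria, were the list with the highest median: 9 of 9 tested members were higher with IFNg, with a median log2 difference of 1.81 against -0.012 over all genes. Iigp1 (Irga6), an immunity-related GTPase, gave 23.5 and 26.03 with IFNa and 1485 and 1466 with IFNg, against 15.5 and 14.8 on the AMN107 arrays. Iigp1 rose by log2 0.49 with IFNa over the arrays without interferon, and IFNg lay far above both (log2 difference 5.47, SE 0.0766, 44.4-fold, adjusted p 6.16e-17 by limma). Ifi47 (Irgd) gave 285 and 279 with IFNa and 1780 and 1770 with IFNg, against 89.9 and 123 without interferon. Its 3 groups lay in 3 separate steps, and IFNg against IFNa was 6.14-fold. Igtp (Irgm3) stood at 934 and 900 with IFNa and 3294 and 3194 with IFNg, against 426 and 524 on the AMN107 arrays, a 3.51-fold difference between the interferons. Igtp had the same 3 steps as Ifi47. The guanylate-binding proteins ranged from Gbp6 (4.11-fold) and Gbp2 (4.08-fold, 550 and 600 against 2291 and 2452) through Gbp7 (3.18-fold) to Gbp3 (1.69-fold), and Irgm2 and Irgm1 differed by 2.80-fold and 2.72-fold. Gbp2b, of the same family and outside the list, gave 286 and 295 with IFNa and 2327 and 2216 with IFNg (7.62-fold, adjusted p 1.17e-11). All 9 listed members also rose with IFNa over the AMN107 arrays, up to log2 1.35 for Ifi47. All 9 calls held without any 1 array and with all 12 arrays in the fit.

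Among interferon receptors, JAK-STAT proteins and IRF factors, 11 of 23 tested members were higher with IFNg and 0 lower (median 0.22). Irf1, the factor induced early by IFNg, gave 304 and 292 with IFNa and 1288 and 1255 with IFNg, against 222 and 213 without interferon. The IFNg arrays stood 4.17-fold above the IFNa arrays (log2 2.06, SE 0.0754, adjusted p 2.84e-11), while IFNa lifted Irf1 by log2 0.44 (adjusted p 0.0043). Irf8, known for its part in myeloid cells, gave 18.1 and 18.6 with IFNa, 105 and 107 with IFNg, and 15.3 and 17.5 without interferon. With IFNa it stayed within log2 0.11 of the AMN107 arrays (adjusted p 0.99), and IFNg exceeded IFNa by 4.24-fold; a second probe set gave a smaller log2 difference of 1.40. Batf2, a basic leucine zipper partner of IRF proteins, gave 24.3 and 31.5 with IFNa and 244 and 212 with IFNg, with 28.5 and 23.7 on the AMN107 arrays. Here too the IFNa and AMN107 arrays overlapped and the IFNg arrays lay 6.48-fold higher. Stat3 (2.57-fold, with log2 1.24, 0.18 and 0.15 at other probe sets), Irf2 (1.71-fold), Batf3 (1.69-fold), the IFNa receptor chain Ifnar2 (1.61-fold), Jak2 (1.42-fold) and Cebpd (1.33-fold) were higher with IFNg, and none of these 6 passed the test with IFNa against AMN107. Stat2 (1.58-fold) and Nmi (1.47-fold) were higher with IFNg and also rose with IFNa. The receptor chains Ifngr1, Ifngr2 and Ifnar1 did not pass, with log2 differences of -0.13, -0.08 and -0.01, nor did Irf7, which gave 786 and 780 with IFNa and 849 and 750 with IFNg. The calls of Stat2 and Cebpd were lost when 1 array was left out (Stat2 without AMN107-IFNg replicate 2, Cebpd without AMN107-IFNa replicate 1 or either AMN107-IFNg array), and those of Batf3, Nmi, Stat2 and Cebpd with all 12 arrays in the fit.

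Of 15 tested inhibitors of cytokine signalling, 2 were higher with IFNg and 0 lower. Over all genes 3.09% were higher, and the list's median of 0.03 lay near that of all genes (-0.012). Socs3, a feedback inhibitor of JAK kinases, gave 53.0 and 57.6 with IFNa and 247 and 286 with IFNg, with 55.3 and 56.7 on the AMN107 arrays. IFNa left Socs3 at the level without interferon, and IFNg raised it over IFNa by 4.29-fold (adjusted p 2.28e-10), with log2 differences of 1.17 and 2.07 at other probe sets. Socs1, the inhibitor best known for acting on IFNg signalling, gave 77.2 and 78.4 with IFNa and 147 and 144 with IFNg (1.78-fold). With all 12 arrays in the fit Socs1 lost its call (adjusted p 0.0542). Socs2 lay lower with IFNg by log2 -0.35 and did not pass the test (adjusted p 0.06).

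**Figure D2:**
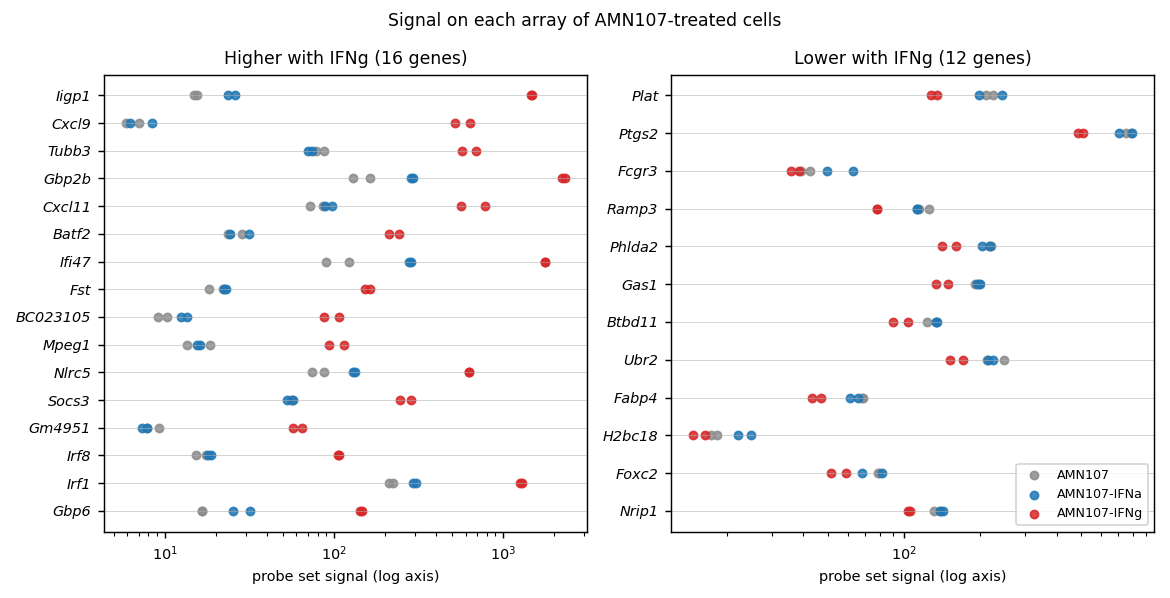
Probe set signal (log axis) on each AMN107-treated array for the 16 genes with the largest higher and the 12 with the largest lower difference; each point is 1 array, grey without interferon, blue with IFNa and red with IFNg. Genes were picked so that their arrays do not overlap between the interferons, so the gap within each row follows from that choice. In the left panel the rows run from Iigp1 (1466 and 1485 with IFNg against 23.5 and 26.03 with IFNa) to Gbp6 (143 and 146 against 25.4 and 31.9).

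Chemokines and cytokines were higher with IFNg for 9 of 20 tested members and lower for 0 (median 0.28). Cxcl9, which draws T cells through the receptor CXCR3, gave 8.37 and 6.26 with IFNa, 634 and 517 with IFNg, and 6.99 and 5.87 on the AMN107 arrays. The IFNa arrays overlapped the arrays without interferon and lay under the arrays' medians, and the IFNg arrays were 36.4-fold higher on the scale of signal plus pseudocount (log2 5.18, SE 0.117, adjusted p 4.85e-14). A dim second probe set of Cxcl9 gave log2 0.64. Cxcl11, another CXCR3 ligand, gave 88.4 and 97.6 with IFNa and 781 and 567 with IFNg (6.63-fold, and log2 1.79 at a second probe set). Cxcl10, a further ligand of CXCR3, gave 2781 and 3080 with IFNa and 5135 and 5360 with IFNg, over 1617 and 1935 without interferon. Unlike Cxcl9 and Cxcl11, for which IFNa did not pass against AMN107, Cxcl10 rose with both interferons, and IFNg exceeded IFNa by 1.79-fold. Cx3cl1 (1.99-fold, but log2 0.20, 0.17 and 0.23 at other probe sets), the IL-18 antagonist Il18bp (1.86-fold), the T and NK cell factor Il15 (1.66-fold), the monocyte chemokine Ccl2 (1.5-fold), Il7 (1.42-fold) and Lif (1.32-fold) were higher with IFNg. Il7 and Lif lost their calls when 1 of several arrays was left out, and Ccl2, Il7 and Lif lost them with all 12 arrays in the fit. Ccl5 (log2 -0.08), Ccl7 (0.26), Il6 (0.06) and Cxcl1 (-0.14) did not pass.

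Genes of MHC class I and peptide loading were higher with IFNg for 6 of 12 tested members and lower for 0 (median 0.33). Nlrc5, the transactivator of MHC class I genes, gave 134 and 129 with IFNa and 630 and 627 with IFNg, against 73.8 and 87.9 without interferon. The 3 groups lay apart, with IFNg 4.55-fold over IFNa (adjusted p 5.56e-11). Tap1, a subunit of the peptide transporter, gave 187 and 179 with IFNa and 478 and 468 with IFNg (2.52-fold), and its partner Tap2 differed by 1.58-fold. Tapbpl (2.34-fold, log2 0.57 at a second probe set), the trimming peptidase Erap1 (1.43-fold) and tapasin, Tapbp (1.41-fold), were also higher; Erap1 and Tapbp lost the call with all 12 arrays in the fit. The class I chains themselves did not pass: H2-K1 gave 4173 and 4048 with IFNa and 4039 and 3904 with IFNg, H2-D1 differed by log2 0.03 and B2m by 0.12. Of 7 tested proteasome genes, 3 were higher: the immunoproteasome subunits Psmb9 (117 and 132 against 419 and 366, 3-fold) and Psmb10 (1.78-fold) and the activator subunit Psme1 (1.41-fold, lost with all 12 arrays in the fit at an adjusted p of 0.151). The standard subunits Psmb5, Psmb6 and Psmb7 differed by log2 -0.02, 0.00 and -0.02. Of MHC class II genes, 3 were tested, and the invariant chain Cd74 did not pass (log2 0.09). Ifi30, a lysosomal thiol reductase of class II processing, was lower with IFNg, at 781 and 762 against 916 and 914 (log2 -0.24, adjusted p 0.0142), and lost the call when any of the 4 arrays was left out.

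Antiviral effectors held 16 higher and 0 lower among 43 tested members (median 0.21), and this list was divided. Phf11d, Ifi44l, Parp14, Ifit2 and Samhd1 differed by 2-fold or more. Parp14, an ADP-ribosyltransferase, gave 462 and 481 with IFNa and 1207 and 1161 with IFNg, over 187 and 248 without interferon (2.48-fold). Samhd1, which lowers the nucleotide pool, gave 447 and 441 with IFNa and 978 and 925 with IFNg (2.12-fold, with log2 0.25 to 1.01 at 4 other probe sets). Ifit2, an RNA-binding tetratricopeptide protein, differed by 2.20-fold in the same order of groups. Ifi44l gave 18.5 and 19.8 with IFNa and 82.5 and 57.4 with IFNg (2.79-fold; a second probe set gave log2 1.36, and a dim one 0.04), and Phf11d gave 81.7 and 96.6 with IFNa and 234 and 392 with IFNg. In both genes the arrays of the groups did not overlap, but the 2 IFNg arrays were far apart. Of the 16 calls, those of Cmpk2, Mx1, Rsad2 and Xaf1 were lost when 1 array was left out, and 10 held with all 12 arrays in the fit. The other 27 members did not pass. Oas1a, which makes the second messenger of RNase L, gave 2510 and 2518 with IFNa and 2604 and 2484 with IFNg, against 1574 and 1785 without interferon. Its log2 difference between the interferons was 0.02, with a 95% interval of -0.116 to 0.15. Isg20 (log2 0.05) and Bst2 (-0.07) did not pass either, and each rose with both interferons over the AMN107 arrays. Over that shared control, 35 of the 43 antiviral genes were higher with IFNg and 30 with IFNa.

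Of 17 tested RNA and DNA sensors and their adaptors, 6 were higher with IFNg and 0 lower (median 0.29). Zbp1, a sensor of Z-form nucleic acid, gave 138 and 146 with IFNa and 425 and 392 with IFNg (2.77-fold), and Tlr3, the endosomal receptor of double-stranded RNA, gave 49.8 and 51.1 against 114 and 108 (2.03-fold). Sting1, the adaptor downstream of cyclic dinucleotides, gave 153 and 129 with IFNa and 295 and 257 with IFNg, with 128 and 147 without interferon. The IFNa and AMN107 arrays overlapped, and IFNg raised it by 1.91-fold over IFNa. Mndal (1.89-fold), the adaptor Myd88 (1.67-fold) and Cgas (1.22-fold) were also higher. The call of Cgas was lost when any of the 4 arrays was left out, and with all 12 arrays in the fit Sting1 and Cgas lost theirs. Ifih1 (MDA5), a cytosolic RNA helicase, gave 1070 and 1061 with IFNa and 1086 and 1058 with IFNg, over 787 and 876 without interferon, so its 2 interferon groups overlapped (log2 0.01). Of the genes of ISG15 conjugation and removal, the ligase Herc6 (1.47-fold) and the activating enzyme Uba7 (1.33-fold) were higher among 4 tested, and each lost its call without 1 of several arrays. The ISG15 protease Usp18 gave 1920 and 1898 with IFNa and 1884 and 1688 with IFNg (log2 -0.10, adjusted p 0.865).

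Cell death genes were higher with IFNg for 7 of 13 tested members and lower for 0 (median 0.37). Casp4, the caspase that senses cytosolic lipopolysaccharide, gave 23.7 and 32.2 with IFNa and 141 and 138 with IFNg (4.07-fold). Casp12 lies beside it in the caspase family and gave 28.2 and 25.7 against 138 and 130 (4-fold; log2 1.39 at a second probe set). Tnfrsf1a (1.57-fold), Daxx (1.5-fold), the necroptosis effector Mlkl (1.37-fold), the death receptor Fas (1.37-fold, dim) and Bak1 (1.30-fold) were higher by less; Fas and Bak1 lost their calls when 1 array was left out, and Mlkl, Fas and Bak1 with all 12 arrays. Of 9 tested ligands and receptors of immune contact, 5 were higher (median 0.39). Cd274 (PD-L1), the ligand of PD-1, gave 47.7 and 47.0 with IFNa and 214 and 199 with IFNg, against 27.0 and 29.3 without interferon. It rose with both interferons, and IFNg stood 3.83-fold over IFNa (adjusted p 4.33e-10). Cd40 (2.54-fold) and Il13ra1 (2.27-fold) were higher with IFNg and did not pass with IFNa, and Vcam1 (1.5-fold) and Cd47 (1.31-fold) were higher by less; Vcam1 lost its call with all 12 arrays. The complement proteases C1s1 (2.09-fold) and C1ra (1.95-fold) were higher among 6 tested complement genes, both from dim signals. Of 11 metabolic effectors tied to IFNg, 5 were higher: Upp1 (2.37-fold), Acod1, which makes itaconate (1.64-fold), Apol6 (1.61-fold), the tryptophan-tRNA ligase Wars (1.59-fold) and Lap3 (1.28-fold, lost when 1 array was left out). Nos2, the inducible nitric oxide synthase, gave 32.2 and 28.3 with IFNa and 30.1 and 30.0 with IFNg and did not pass.

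**Figure D3:**
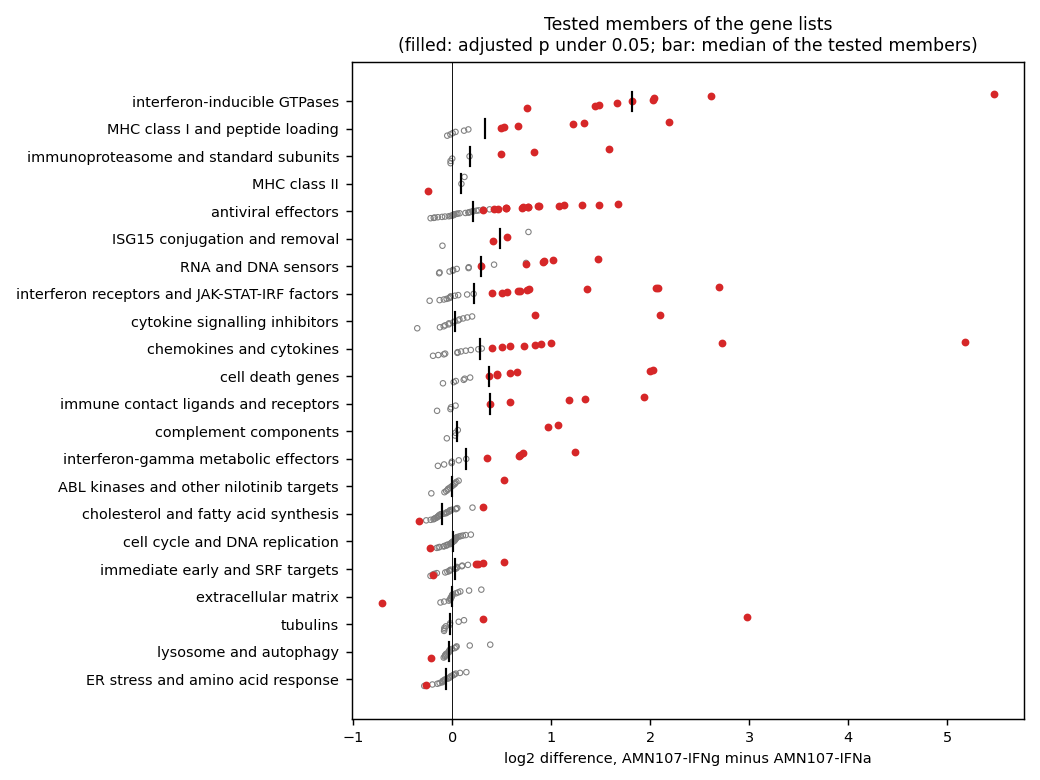
Log2 difference AMN107-IFNg minus AMN107-IFNa (x axis) of every tested member of 22 gene lists; each circle is 1 gene, filled where its adjusted p was under 0.05, and the bar is the list's median. The GTPase list is filled throughout and has its median at 1.81, while the lists from the ABL kinases downward lie around 0 apart from single genes such as Tubb3 at 2.98 and Plat at -0.71.

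The lists below were not chosen for a tie to interferon, and their counts are to be read against the 3.53% of all genes called. Tubb3, the beta-tubulin best known from neurons, gave 73.8 and 70.6 with IFNa and 692 and 573 with IFNg, with 78.5 and 86.7 on the AMN107 arrays. IFNa did not raise it, and IFNg stood 7.89-fold over IFNa (adjusted p 1.4e-11). Of the other 9 tested tubulins, Tuba1a was higher by 1.24-fold, lost when 1 array was left out, and the remaining 8 did not pass. The neuron and glia markers summed to 284 and 284 with IFNa and 909 and 793 with IFNg; without Tubb3 the sums were 210 and 213 against 217 and 220. Of 13 ABL kinases and other nilotinib targets, Abl2 alone passed, at 494 and 488 with IFNa and 715 and 705 with IFNg (1.44-fold, adjusted p 0.00011), with log2 differences of 0.30 and 0.31 at other probe sets. Abl1 gave 136 and 137 with IFNa and 136 and 139 with IFNg (log2 0.01, 95% interval -0.139 to 0.158). Of 28 cholesterol and fatty acid genes, Srebf1 was higher and Mvd lower (median -0.10). Of 30 cell cycle genes, Cdc20 was lower by 1.17-fold. Of 21 immediate early genes, Dusp6, Atf3, Ccn1 and Vcl were higher and Ier3 lower, by 1.43-fold or less; further probe sets of Ccn1 gave log2 0.17, -0.21 and -0.10, so they disagreed in direction. Sqstm1 of 17 lysosome and autophagy genes and Cth of 20 ER stress genes were lower by 1.16-fold and 1.2-fold, with log2 0.09 at a second Sqstm1 probe set. Each of the calls from Srebf1 to Cth was lost when 1 array or another was left out.

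The genes lower with IFNg were few and changed little. Plat, tissue plasminogen activator, had the largest difference: 198 and 243 with IFNa, 128 and 135 with IFNg, and 210 and 224 on the AMN107 arrays. The IFNa arrays spanned the level without interferon, and IFNg lay 1.63-fold under IFNa (log2 -0.71, SE 0.0877, adjusted p 6.14e-05), with log2 -0.24 at a dim second probe set. Plat was the 1 of 16 tested extracellular matrix genes that passed. Ptgs2, the inducible cyclooxygenase, gave 702 and 797 with IFNa and 486 and 508 with IFNg (log2 -0.58). Ramp3, a receptor activity-modifying protein, gave 112 and 112 against 78.1 and 78.0 (log2 -0.48), and Phlda2 gave 219 and 203 against 141 and 160 (log2 -0.47). In these 3 genes the arrays with IFNa lay at or near the AMN107 arrays, and those with IFNg below them. Fcgr3 and H2bc18 had another pattern, with both IFNa arrays above the AMN107 arrays and IFNg lower than IFNa by log2 -0.50 and -0.41. The other 6 of the 12, Gas1, Btbd11, Ubr2, Fabp4, Foxc2 and Nrip1, were lower by log2 -0.46 to -0.39. Further probe sets of Ubr2 gave -0.01, 0.20 and -0.12. Of the 12, 4 (Plat, Ptgs2, Ramp3 and Phlda2) kept the call without any 1 array, and with all 12 arrays in the fit Ptgs2, Ramp3 and Phlda2 did not.

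Whether the difference between the interferons depended on AMN107 was tested as an interaction, which needs the IFNa arrays and so all 12 arrays. The difference itself, IFNg minus IFNa, called 2153 genes without AMN107 (17.8%; 572 or 4.72% higher, 1581 or 13.0% lower), a count that includes the IFNa replicate with the low 5′ to 3′ ratio. The interaction called 49 genes (0.404%): 29 (0.239%) had a positive interaction and 20 (0.165%) a negative one. A positive interaction means that the signed log2 difference, IFNg minus IFNa, was higher with AMN107 than without; a gene that IFNa favoured without AMN107 can have one because its gap closed. Leaving out either IFNa array left 1 array in that group and removed its wide replicate spread, and the total then rose. Calls kept in those fits are therefore no check on the 49. The total was 5 to 20 when 1 array of any other group was left out: 20 without either DMSO array, 17 without either AMN107 array, 12 and 6 without IFNg replicate 1 or 2, 6 and 5 without AMN107-IFNa replicate 1 or 2, and 8 without either AMN107-IFNg array. Quantile normalization gave 23 positive and 24 negative interactions, and array weights 13 and 20.

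Antiviral effectors were 7 of the 29 genes with a positive interaction (7 of 43 tested, median interaction 0.47), and sensors 2 of 17. Without IFNa replicate 2, where 7.01% of all genes had a positive and 3.57% a negative one, 21 antiviral genes had a positive and 1 a negative one, and 8 sensors a positive one. Without AMN107, 15 of the 43 antiviral genes were lower with IFNg than with IFNa and 5 higher (median -0.20). Over all genes 13.0% were lower and 4.72% higher there (median -0.0491). These counts include the IFNa replicate with the low 5′ to 3′ ratio. Ifih1 gave 1318 and 1433 with IFNa and 588 and 605 with IFNg when AMN107 was absent, with 627 and 621 in DMSO. There the IFNa arrays stood above the DMSO arrays and the IFNg arrays did not, whereas under AMN107 the IFNa and IFNg arrays overlapped (interaction log2 1.2, SE 0.113, adjusted p 0.0024, and 1.14 without IFNa replicate 2). Oas2, a synthetase of the same family as Oas1a, gave 284 and 278 with IFNa and 148 and 159 with IFNg without AMN107, and 193 and 194 with IFNa and 279 and 261 with IFNg under it. The order of the interferons turned round in Oas2, and its interaction was log2 1.30 (adjusted p 0.0024; 1.32 without IFNa replicate 2).

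Ifi44l and Mx1 turned round in the same way. Ifi44l gave 26.03 and 31.9 with IFNa and 10.99 and 12.1 with IFNg without AMN107, an interaction of log2 2.37 (adjusted p 0.00175). Mx1, a dynamin-like GTPase that blocks orthomyxoviruses, gave 28.2 and 38.7 with IFNa and 9.06 and 14.5 with IFNg without AMN107, and 34.0 and 34.2 with IFNa and 70.4 and 53.4 with IFNg under it (interaction log2 1.75, adjusted p 0.0123). Ifit3 gave 241 and 282 with IFNa and 162 and 166 with IFNg without AMN107, from 30.1 and 24.5 in DMSO. Under AMN107 its signal was 297 and 411 without interferon, 1179 and 1207 with IFNa and 2125 and 1953 with IFNg, so the AMN107 arrays without interferon already lay above the IFNa arrays without AMN107 (interaction log2 1.41, adjusted p 0.0243). Phf11d, Trim30d and Ifit1 were the other antiviral genes called, at log2 2.37, 1.62 and 0.84. Dhx58 (LGP2), an RNA helicase sensor, was lower with IFNg without AMN107 (102 and 80.9 against 241 and 267) and did not differ past the threshold under it (interaction log2 1.56, adjusted p 0.013); its 2 other, dim probe sets gave differences under AMN107 of 0.02 and -0.06. Outside the lists, Endod1 and Trafd1 had interactions of log2 0.98 and 0.96. Apart from Ifi44l, each gene called in this paragraph lost its interaction call when 1 array or another was left out.

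**Figure D4:**
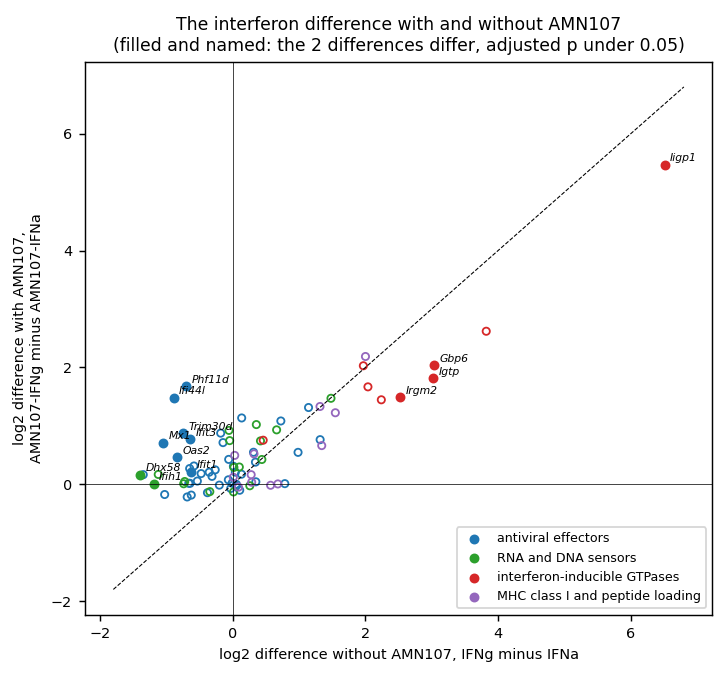
Log2 difference IFNg minus IFNa without AMN107 (x axis) against the same difference under AMN107 (y axis) for the tested members of 4 lists; each circle is 1 gene, the dashed line marks equal differences, and filled, named circles passed the interaction test. The named antiviral genes and sensors lie left of 0 on the x axis and at or above 0 on the y axis, and the named GTPases lie under the line.

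Most GTPases moved the other way, though 9 of 9 were higher with IFNg in both settings. The median interaction was -0.99, and 2 of 9 lay above 0. For 4 the smaller difference under AMN107 passed the interaction test. Each of these 4 lost its call when any 1 IFNg, AMN107-IFNa or AMN107-IFNg array was left out. Igtp gave 414 and 386 with IFNa and 3399 and 3238 with IFNg without AMN107, where DMSO arrays were at 83.3 and 78.0. Its level with IFNg was much the same in both settings, and its level with IFNa was higher under AMN107 (934 and 900), with an interaction of log2 -1.21 (adjusted p 0.00766). Iigp1 gave 2712 and 2670 with IFNg without AMN107 and 1485 and 1466 under it, and its IFNa arrays were at 17.6 and 24.7 and at 23.5 and 26.03 (interaction log2 -1.04, adjusted p 0.0282). Gbp6 and Irgm2 had interactions of -0.99 and -1.03. Irf8 (-0.77) was the 1 factor of the JAK-STAT-IRF list called, with 212 and 216 for IFNg without AMN107 and 105 and 107 under it. Cxcl9 went against these, with 283 and 224 for IFNg without AMN107 and 634 and 517 under it (interaction 1.06, adjusted p 0.0384). Irf8 and Cxcl9 lost their calls with a pseudocount of 1, with array weights, and when any 1 array outside the IFNa group was left out. Cxcl9 also lost its call with quantile normalization. Of the MHC class I list, 0 of 12 passed the interaction with all 12 arrays and 4 had a negative interaction without IFNa replicate 2. Nlrc5 and Tap1 had interactions of 0.19 and 0.02.

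Genes outside the interferon lists made up the rest of the 6 smallest p-values among negative interactions. BC023105 had the largest interaction in that direction, log2 -2.03 (adjusted p 0.0024): it gave 285 and 379 with IFNg without AMN107 and 107 and 87.3 under it, with IFNa arrays at 8.54 and 7.99 and at 12.5 and 13.6. Laptm4a, Srsf5, Ilf2 and a probe set annotated to Mir1949 were higher with IFNg than with IFNa without AMN107 and did not pass under it, with interactions of -0.98, -1.10, -0.99 and -0.93. Of these, Laptm4a alone kept its interaction call whichever array was left out. For Laptm4a, a late endosomal membrane protein, the signals without AMN107 were 1154 and 1060 with IFNa and 2370 and 2354 with IFNg, and 2697 and 2545 on the AMN107 arrays. The 2 IFNg arrays without AMN107 were thus closer to the AMN107 arrays than to the DMSO arrays (866 and 908). For Srsf5, a splicing factor, these IFNg arrays (2331 and 2554) lay between DMSO (1345 and 1416) and AMN107 (3166 and 3497). In the actin ratio and the LysX control signal, too, the IFNg arrays without AMN107 lay nearer to the AMN107 arrays than to DMSO. The part of that in these genes was not tested.

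**Figure D5:**
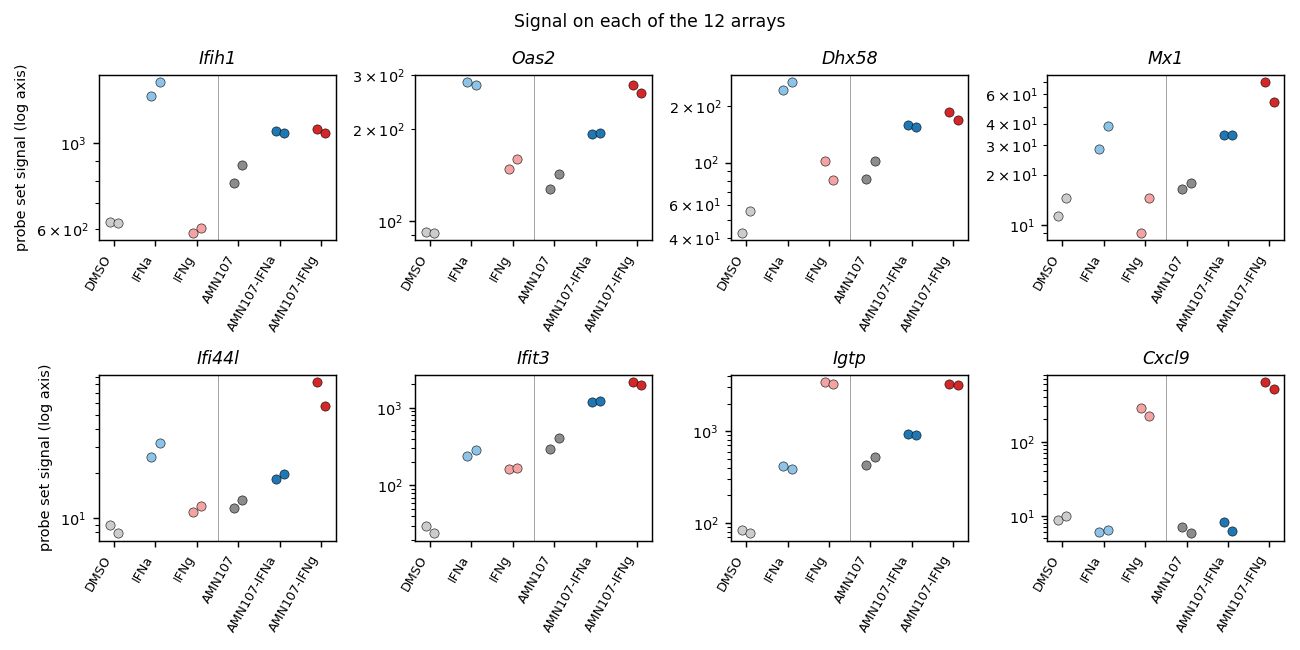
Probe set signal (log axis) on each of the 12 arrays for 8 genes; the x axis gives the group, each point is 1 array, and the vertical line parts the groups without AMN107 (left) from those with it (right). Ifih1 is highest with IFNa on the left (1318 and 1433) and level between the interferons on the right (1058 to 1086), while Igtp and Cxcl9 are highest with IFNg on both sides.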

How the data were processed

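RNA of MEFs was hybridised to 12 Affymetrix arrays, 2 for each of 6 groups, grouped by their titles. The deposited values are linear probe set intensity values made by the authors with MAS5, per the submitters' processing notes; version, scaling and settings are not given in the sources used here. The medians of the arrays lie close together, and no further normalization was applied. Of 45101 probe sets, 34945 had 1 gene in the platform annotation, 932 had several and 9160 none, and 64 controls were left out.

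The scale was log2 of the signal plus a pseudocount of 8.71, which averages the 25th percentiles of 10 arrays, so folds of dim genes are understated and are ratios of signal plus 8.71. A probe set was tested if above its array's median on at least 2 of the 10 arrays, and the probe set with the highest mean log2 value stood for a gene, which left 12117 genes. One mean per group was estimated with limma 3.58.1 in R 4.3.3 (lmFit, eBayes with trend) from the 10 arrays of the 5 groups other than IFNa. Contrasts were tested two-sided with Benjamini-Hochberg adjustment over all 12117 genes and a threshold of 0.05, and intervals are 95%. All adjusted p-values and SE in the text come from these limma fits. The interaction, (AMN107-IFNg minus AMN107-IFNa) minus (IFNg minus IFNa), and the difference without AMN107 used all 12 arrays and were repeated without each IFNa array. The scripts were tested on simulated data. Precision is limited by having 2 arrays per group.

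The genes named are the 16 largest higher and 12 largest lower differences with an adjusted p under 0.05 whose arrays do not overlap, the 6 smallest interaction p-values in each direction, and members of 22 gene lists. The members and lists were chosen with earlier results of these data known, so a count on a list is a description and carries no test. Of 497 listed genes, 370 were tested, and the other 127 are not analysed here. The check used did not settle whether replicate numbers pair the arrays. The correlation of same-numbered arrays' deviations ran from -0.145 to 0.314 over the pairs of groups, and was highest for AMN107 with AMN107-IFNa. Alternatives were other normalizations, pseudocounts, filters, array weights, a replicate block, other sets of arrays and leaving out each array. Promoter sequence came from RefSeq (GRCm38.p6).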

Additional observations from a re-analysis of the deposited data

Results flagged for a closer look

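These genes had a difference between IFNg and IFNa that itself differed between cells with and without AMN107 in the interaction test on all 12 arrays. Values are log2, with AMN107 minus without. Of these 27 genes, 5 (Ifi44l, Ifih1, Oas2, BC023105 and Laptm4a) kept the interaction call in every setting run. The others lost it in some setting. Calls kept when an IFNa array was left out are no check, because those fits remove that group's wide replicate spread.

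Among antiviral genes and sensors the interaction was 2.37 for Ifi44l, 2.37 for Phf11d, 1.75 for Mx1, 1.62 for Trim30d, 1.56 for Dhx58, 1.41 for Ifit3, 1.30 for Oas2, 1.2 for Ifih1 and 0.84 for Ifit1. It was 0.98 for Endod1, 0.96 for the signalling regulator Trafd1 and 1.06 for the chemokine Cxcl9.

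Among the interferon-inducible GTPases it was -1.21 for Igtp, -1.04 for Iigp1, -1.03 for Irgm2 and -0.99 for Gbp6, and it was -0.77 for the transcription factor Irf8 and -2.03 for BC023105. Among genes with other roles it was -1.10 for the splicing factor Srsf5, -1.02 for the stretch-responsive gene Ankrd1, -0.99 for Ilf2, -0.98 for Laptm4a and -0.93 for the probe set of Mir1949. It was -0.84 for the SUMO ligase Pias4, -0.79 for the mitotic kinase Aurka, -0.71 for the mitotic activator Cdc20 and -0.62 for the tubulin Tubb4b. In Ankrd1, Pias4, Aurka, Cdc20 and Tubb4b the sign without AMN107 was positive, and under AMN107 the difference lay between -0.23 and -0.06.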

How the results depend on the processing

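With 2 arrays per group, calls of small size depend on single arrays. Of 428 genes called under AMN107, 170 were called with all 12 arrays in the fit; leaving out 1 array gave 260 to 485, and at 2-fold or more 56 to 74. Every other setting of this comparison stayed within 1.5 times, from 376 (eBayes without trend) to 529 (array weights), and none gave a gene lower by 2-fold. Of 114 listed or named genes called under AMN107, 65 kept the call in every setting, and none of these 114 changed direction. The replicate block gave 424 calls (61 at 2-fold) under AMN107 and 51 (25 at 2-fold) for the interaction; only arrays that share a number are tied by it. For the interaction, leaving out 1 array gave 5 to 4922 calls, and 5 to 377 at 2-fold, the highest without IFNa replicate 1. Quantile normalization gave 47 (23 positive, 24 negative), median centring 57 (38 and 19) and array weights 33 (13 and 20), against 29 and 20 as reported. Of 27 genes followed, 5 kept the interaction call in every setting. The cause was not tested. Dim probe sets near the pseudocount, such as Cxcl9 without IFNg, have folds that depend on it.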

Other observations

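Of the 61 genes higher with IFNg by 2-fold or more under AMN107, 27 lay in none of the gene lists. The ones below were chosen after their values were seen, and their adjusted p-values come from limma. Fst, follistatin, which binds activin, gave 22.3 and 22.99 with IFNa and 164 and 153 with IFNg (log2 2.41, adjusted p 1.92e-11), and 3.45 at a second probe set. Mpeg1, a pore-forming protein of macrophages, gave 15.4 and 16.03 with IFNa and 115 and 94.0 with IFNg. The macrophage and leukocyte markers, of which 4 of 11 were above the array's median, did not sum higher with IFNg. Which cells gave the Mpeg1 signal was not tested. Gm4951 gave 7.83 and 7.29 with IFNa and 64.5 and 57.3 with IFNg.

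Cdc42ep2, an effector of Cdc42, gave 76.5 and 70.3 with IFNa and 290 and 325 with IFNg (log2 1.94). Katna1, the catalytic subunit of the microtubule-severing katanin, gave 292 and 283 against 757 and 724 (log2 1.34), and Shroom3, an actin-binding protein of apical constriction, 47.0 and 48.0 against 122 and 127 (log2 1.24, and -0.03 to 0.91 at 4 other probe sets). The formin Fhod3 differed by 1.03. In Cdc42ep2, Katna1 and Shroom3 the IFNa arrays stood close to the AMN107 arrays without interferon, as they did for Tubb3.

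Notch1 gave 76.8 and 67.5 with IFNa and 200 and 183 with IFNg (log2 1.31, and 0.55 at a second probe set), Osmr, the oncostatin M receptor, 42.0 and 55.5 against 149 and 118 (log2 1.31), and Il15ra 182 and 223 against 431 and 409 (log2 1.03), beside its ligand Il15. The pattern recognition protein Ptx3 differed by 1.42, the axon guidance protein Ntn1 by 1.23 and transglutaminase Tgm2 by 1.04 (0.15 to 0.98 at 5 other probe sets). Mt2, a metallothionein, gave 762 and 746 with IFNa and 1722 and 1678 with IFNg (log2 1.16). The transcription factor Crem differed by 1.71 (2.27 and, where dim, 0.11 and 0.04 at other probe sets), the sorting nexin Snx10 by 1.47, Tmem140 by 1.95 and Clec2d, a ligand of NK cell receptors, by 1.66.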
